A study of Mus musculus with 12 samples.

Results

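Transforming growth factor beta (TGF-beta) and activin are secreted dimeric proteins that signal through paired serine/threonine kinase receptors. A type II receptor binds the ligand and activates a type I receptor, which phosphorylates SMAD2 and SMAD3, and these then enter the nucleus with SMAD4. In skeletal muscle the pathway is known for its action on fibro-adipogenic progenitors (FAPs), the mesenchymal cells between the muscle fibres, where it favours matrix production, and activin also limits muscle mass. The 9 genes described here were chosen by symbol and matched to Ensembl gene IDs, 9 of the 55335 gene rows in each count file. They are the ligand genes Tgfb1, Tgfb2 and Tgfb3, the receptor genes Tgfbr1, Tgfbr2 and Tgfbr3, the activin subunit gene Inhba, the activin inhibitor gene Fst and the inhibitory SMAD gene Smad7. In that order they lie on chromosomes 7, 1, 12, 4, 9, 5, 13, 13 and 18.

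The 12 RNA-seq libraries, 3 in each of 4 groups, were made from cultured mouse limb muscle FAPs. The labels give the sort as 7AAD- Lin- Vcam- Sca1+, and the cells were grown in alpha-MEM with 20% FBS. WT cultures were derived from wild-type mice and received ethanol. Bap1KO cultures received 1 µM 4-hydroxytamoxifen (4-OHT) to delete Bap1, which encodes a nuclear deubiquitinase. Smn1OE cultures received 1 µM 4-OHT and were transfected with a human SMN vector (SMN acts in the assembly of spliceosomal snRNPs), and Smn1OE_K186R cultures received 1 µM 4-OHT and a vector for the K186R point mutant of SMN. The treatment text names Rosa-CreER as the driver of deletion, whereas the source label of all groups but WT names Prrx1Cre;Bap1f/f mice, so the Cre cannot be settled from the labels. No group carried an empty vector, SMN without 4-OHT, or 4-OHT without deletion of Bap1. The series' design text states the aim as finding downstream targets of Bap1 and Smn in FAPs.

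Culture media batches A, B and C each held replicate 1, 2 or 3 of WT and Bap1KO, and batches D, E and F each held the same-numbered replicate of Smn1OE and Smn1OE_K186R. Any comparison of an SMN group with WT or Bap1KO is thus also one between batches, and the batch and the group cannot be told apart. Libraries also differed in sex-linked expression along that line, with Xist at 197 to 305 CPM (gene counts scaled to the TMM-adjusted library size) in WT and Bap1KO and at most 0.113 CPM in the SMN groups, while the Y-linked Eif2s3y had 0 reads in WT and Bap1KO and 57.9 to 69.7 CPM in the SMN groups. The batch, this sex-linked difference and the group thus cannot be told apart between the SMN groups and the others. The labels do not say whether replicates were separate animals, so p-values measure the spread between these libraries, which may be technical. Between 51198342 and 68216089 reads were counted on genes per library. Bap1 stood at 49.7 to 52.0 CPM in WT, 39.3 to 42.3 CPM in Bap1KO, 47.5 to 50.0 CPM in Smn1OE and 41.7 to 47.3 CPM in Smn1OE_K186R. Which exons were deleted is not stated, so counts over the whole gene do not check the deletion. Smn1 had 30.5 to 35.1 CPM without a vector and 3690 to 5590 CPM with one, where reads of the human construct that align to the mouse gene cannot be told apart from its own. The FAP markers Ly6a (198 to 929 CPM) and Pdgfra (13.9 to 106 CPM) were present in all libraries. The summed level of 7 FAP markers was 11600 to 15600 CPM in WT and 7600 to 11900 CPM in Bap1KO, against 3010 to 4650 CPM with the SMN vector and 3570 to 4920 CPM with its K186R form. Most of that sum was Col1a1, a matrix gene, with means of 12700, 9440, 3180 and 3760 CPM in the same order. Dcn, Dpt and Lum also had lower means in both SMN groups than in Bap1KO, with some overlap. Cd34 of the same list went the other way between Bap1KO (a mean of 23.5 CPM) and Smn1OE (65.3 CPM) or Smn1OE_K186R (60.9 CPM), with no overlap. Of the lists for other cell types, all 5 T and NK cell markers, 3 of 6 macrophage markers (Ptprc, Adgre1 and Itgam), 4 of 6 endothelial markers (Pecam1, Cdh5, Vwf and Cldn5), 4 of 7 myogenic markers (Pax7, Myf5, Myod1 and Myog) and the Schwann cell marker Sox10 stayed under 1 CPM in all libraries. Cd3e, Ncr1 and Myf5 had 0 reads. Of the other macrophage markers, Cd68 had means of 3.12 CPM in WT, 4.86 for Bap1KO, 10.8 for Smn1OE and 8.94 for Smn1OE_K186R. Csf1r, at 4.52 to 21.5 CPM, had means of 11.5, 16.9, 7.01 and 9.04 CPM in the same order. Those of Cd14 were 5.4, 2.17, 2.06 and 2.17 CPM. The 6 pericyte markers summed to 103 to 226 CPM, mostly Cspg4 (50.2 to 85.0 CPM) and Mcam. The mean of Mcam was 46.9 CPM in WT, 34.8 for Bap1KO, 95.8 for Smn1OE and 85.2 for Smn1OE_K186R. In that order, Rgs5 had means of 1.62, 0.742, 2.35 and 1.96 CPM. Kcnj8 went the other way in the SMN groups, with 4.93, 1.49, 0.991 and 0.606 CPM, as did Abcc9, with 1.77, 0.574, 0.586 and 0.658 CPM. Cspg4 and Notch3 had higher means in each other group than in WT. Vcam1, whose protein the sort excluded, had 64.1 to 176 CPM, and 5 tenocyte markers summed to 270 to 479 CPM in WT and 205 to 543 CPM in Bap1KO, against 27.1 to 41.4 CPM in Smn1OE and 39.1 to 65.6 CPM in Smn1OE_K186R. That sum was mainly Fmod and Thbs4, whereas Scx of the same list had means of 4.19 CPM in WT, 8.85 for Bap1KO, 6.78 for Smn1OE and 6.59 for Smn1OE_K186R. In such bulk libraries, fewer cells of a type and less RNA per cell cannot be told apart.

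RefSeq promoter sequences (GRCm38.p6, a build earlier than the GRCm39 of the counts) were used for 5 of the 9 members: Tgfb1, Tgfb2, Tgfbr1, Tgfbr2 and Inhba. No entry was found for Tgfb3, Tgfbr3 and Fst. The promoter of Smad7 was left out of the search, so nothing is said of its motifs. The 250 bases before the start are shown for Inhba and for the first of 2 entries of Tgfbr1, which were called in comparisons described below, and for Tgfb1, which was called in none. Inhba lies on chromosome 13 (chr13:16011601-16011850, plus strand), Tgfbr1 on chromosome 4 (chr4:47352972-47353221, plus strand) and Tgfb1 on chromosome 7 (chr7:25686752-25687001, plus strand). Capitals mark matches, on either strand, to the TATA box motif in Inhba, the CAAT box and GC box motifs in Tgfbr1 and the GC box motif in Tgfb1, with no match overlapping another.
Inhba: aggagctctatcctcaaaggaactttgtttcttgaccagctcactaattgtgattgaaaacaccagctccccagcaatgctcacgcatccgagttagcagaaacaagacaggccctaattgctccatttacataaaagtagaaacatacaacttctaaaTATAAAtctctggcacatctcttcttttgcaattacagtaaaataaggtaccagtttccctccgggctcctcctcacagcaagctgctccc
Tgfbr1: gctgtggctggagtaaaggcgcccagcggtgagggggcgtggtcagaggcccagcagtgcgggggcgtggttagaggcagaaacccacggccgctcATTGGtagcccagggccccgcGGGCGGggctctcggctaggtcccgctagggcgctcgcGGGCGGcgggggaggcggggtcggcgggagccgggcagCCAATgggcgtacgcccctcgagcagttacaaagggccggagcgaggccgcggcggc
Tgfb1: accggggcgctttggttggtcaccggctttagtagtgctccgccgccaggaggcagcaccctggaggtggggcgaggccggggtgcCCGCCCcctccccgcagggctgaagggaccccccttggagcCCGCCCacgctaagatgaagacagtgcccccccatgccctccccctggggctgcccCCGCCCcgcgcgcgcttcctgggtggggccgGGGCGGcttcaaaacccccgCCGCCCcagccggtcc
The Inhba window was 43.2% G and C and held 1 TATA box motif, 91 bases before the start. The Tgfbr1 and Tgfb1 windows were 74.8% and 75.2% G and C, against a median of 52.4% over 32851 RefSeq promoter windows of the same length. Tgfbr1 held 2 CAAT box and 2 GC box motifs, and Tgfb1 held 5 GC box motifs. The TATA box motif was searched as TATAAA and was in 12.4% of all windows. The CAAT box motif was searched as CCAAT and was in 33.8%, and the GC box motif as GGGCGG, in 32.7%. A core of SMAD binding sites, searched as CAGAC, was in 42.2% of all windows, and the AP-1 motif, searched as TGANTCA, in 6.75%. Neither had a match in these 3 windows, which says only that these letters are not there. Of the windows not shown, that of Tgfb2 held 2 CAGAC, 221 and 204 bases before the start, and a TATAAA at 31 bases. The Tgfbr2 window held 1 CAGAC, 160 bases before the start. RefSeq has another entry for Tgfbr1 (chr4:47385966-47386215, plus strand, 52.8% G and C), whose window held 1 CAGAC, 203 bases before its start, and no GC box motif.

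Levels were compared between genes per kilobase of exon, on the scale of TMM-normalised CPM per kilobase. Inhba had the highest level of the 9 in every group, at 55.6 ± 10.9 for WT, 62.6 ± 15.8 for Bap1KO, 101 ± 6.88 for Smn1OE and 123 ± 26.5 for Smn1OE_K186R (SD, n = 3). Tgfb2 had the lowest, at 2.04 to 2.97 CPM per kilobase over the group means, and Tgfbr1 the next lowest, at 2.33 to 4.38. Smad7 was the fifth of the members in WT and the fourth in Bap1KO, and in both SMN groups it came next below Inhba, at 34.4 ± 3.15 and 32.3 ± 2.06 (SD, n = 3). Tgfbr3 went from the third place in WT, at 29.7 ± 5.85, to the seventh in the SMN groups, at 7.13 ± 4.62 and 10.9 ± 7.13. All 9 members passed the filter on low counts, with 512 to 67518 reads per gene and library, so the spread between replicates, not counting error, limits the precision. Gene models that overlap a member's exons (by Tgfb2, Tgfb3, Fst and Tgfbr3) had 15, 50, 30 and 5 reads over all libraries, against 10515, 91639, 56411 and 91147 for the members. Whether counting used strand is not given in the sources used here.

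**Figure D1:**
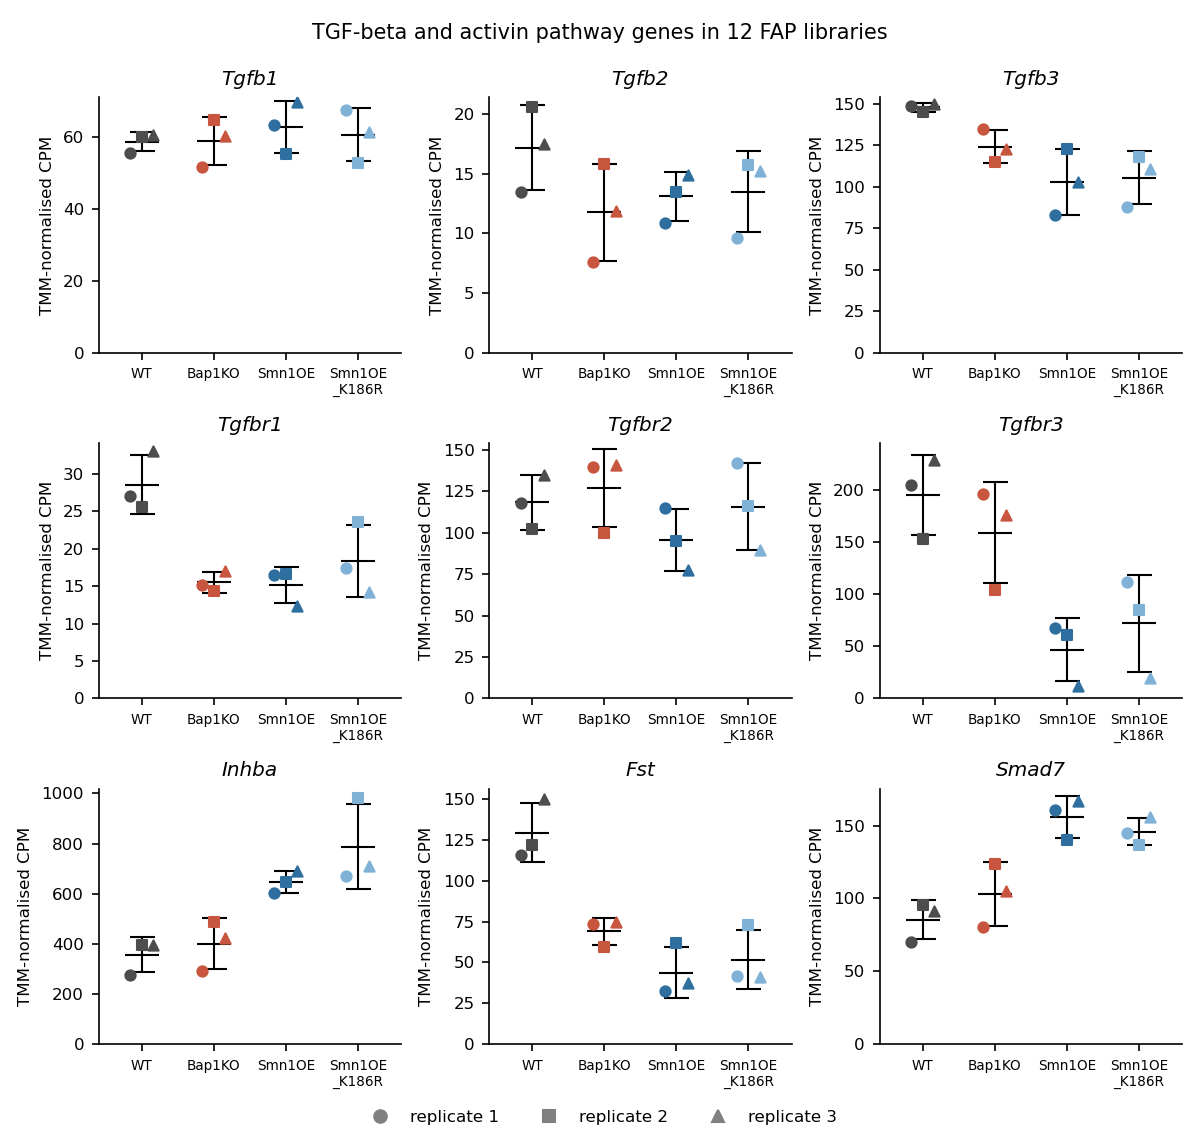
TMM-normalised CPM (y axis, linear from 0) of the 9 genes in each of the 12 libraries, by group (x axis), with one symbol per replicate number and the group mean ± SD over 3 libraries. Inhba and Smad7 are higher in both SMN groups than in WT with no overlap, Tgfbr1 and Fst are lower in all 3 other groups than in WT, and Tgfb1 overlaps throughout.

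The comparison of Bap1KO with WT sets 4-OHT-treated cultures of mice labelled Bap1f/f beside ethanol-treated cultures of wild-type mice, with the medium batches shared. The mouse line, 4-OHT and the deletion of Bap1 cannot be told apart in it. Of the 9 members, Tgfbr1 and Fst were called, both lower, at an adjusted p under 0.05 (edgeR's quasi-likelihood test, Benjamini-Hochberg adjustment over 16597 genes, 2-sided). In the same comparison 9.72% of all genes tested were called, 3.36% higher and 6.37% lower. The members' median log2 fold change was -0.25, beside 0.00 for all genes. Their CPM ranges were apart for 3 of the 9 (Tgfbr1, Fst and Tgfb3), as were those of 32.3% of all genes.

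Tgfbr1 (ENSMUSG00000007613) encodes the type I receptor that carries the TGF-beta signal to SMAD2 and SMAD3. It had 27.1, 25.6 and 33.1 CPM in WT replicates 1 to 3 and 15.1, 14.4 and 17.1 CPM in Bap1KO replicates 1 to 3. Every Bap1KO library lay below every WT library. The mean was 45.8% lower in Bap1KO, a log2 fold change of -0.88 ± 0.18 (SE; edgeR adjusted p = 0.0119). Within batches A, B and C the log2 ratio was -0.85, -0.83 and -0.96. The call held in all 11 alternative settings, with an adjusted p of at most 0.0452.

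Fst (ENSMUSG00000021765) encodes follistatin, a secreted glycoprotein that binds activin and myostatin and keeps them from their receptors. Its level was 116, 122 and 150 CPM in WT and 73.3, 59.5 and 74.5 CPM in Bap1KO. The groups did not overlap. The mean was 46.5% lower in Bap1KO, a log2 fold change of -0.90 ± 0.25 (SE; edgeR adjusted p = 0.0438). That call ended when any 1 of the 6 libraries was left out (adjusted p 0.067 to 0.125), although the log2 fold change stayed between -0.98 and -0.77. It held in the other 5 of 11 alternative settings. These were DESeq2 (adjusted p = 0.00498) and, in edgeR, another scaling (0.0441), no filter on low counts (0.000139), only the 2 groups (0.00781) and a block on the media batch (6.38e-05). Within batches A, B and C the log2 ratio was -0.66, -1.03 and -1.01.

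Blocking on the culture medium batch moved the count of called members from 2 to 6, while the share of all genes called went from 9.72% to 33.9%. The members' share of 6 in 9 is above that background, but with 9 genes chosen with earlier results known it is only a description. The labels name these batches. In the blocked fit (edgeR, adjusted p) Tgfb2 was lower at -0.56 (0.00287), Tgfb3 at -0.24 (0.00896) and Tgfbr3 at -0.31 (0.0169), and Smad7 was higher at 0.27 (0.00514). For each of these 4 genes the difference had the same sign in all 3 batches. Tgfb2, which encodes a ligand that needs the co-receptor betaglycan to bind well, went from 13.5 to 7.63 CPM in batch A, from 20.6 to 15.8 in B and from 17.5 to 11.9 in C. Without the block, its log2 fold change was -0.54 (adjusted p = 0.206), and those of Tgfb3, Tgfbr3 and Smad7 were -0.25 (0.268), -0.30 (0.802) and 0.27 (0.284). Inhba did not pass in either fit, at 0.17 with an adjusted p of 0.636 unblocked and 0.0515 blocked.

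**Figure D2:**
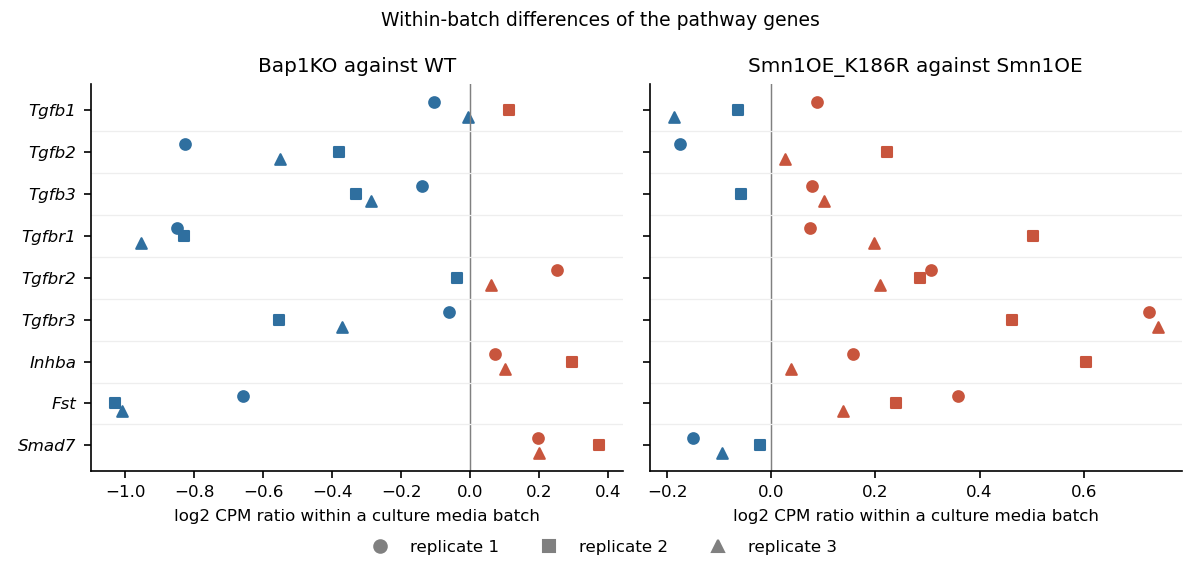
Log2 ratio of CPM between the 2 libraries of a culture media batch (x axis) for the 9 genes (y axis), for Bap1KO over WT in batches A to C and Smn1OE_K186R over Smn1OE in batches D to F, with one symbol per replicate number. Tgfbr1 lies between -0.96 and -0.83 and Fst between -1.03 and -0.66 in all 3 batches of Bap1KO and WT, and Tgfbr3 lies between 0.46 and 0.74 in the 3 batches of the SMN groups.

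Tgfb1 and Tgfbr2 did not pass between Bap1KO and WT in either fit. Tgfb1 (ENSMUSG00000002603), the most studied TGF-beta ligand in fibrosis, had 55.6, 60.0 and 60.6 CPM in WT and 51.7, 64.9 and 60.3 CPM in Bap1KO, with a log2 fold change of 0.01 (95% interval -0.24 to 0.25). Tgfbr2 (ENSMUSG00000032440), the type II receptor gene, had 118, 102 and 135 CPM in WT and 140, 99.8 and 141 CPM in Bap1KO, with a log2 fold change of 0.10 (95% interval -0.31 to 0.52). The ratio of Tgfbr1 to Tgfbr2 CPM was 0.23 to 0.25 in WT and 0.107 to 0.145 in Bap1KO. The ratio's groups did not overlap, with an exact permutation p of 0.1 (2-sided), the smallest that 3 against 3 can give.

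The comparisons of each SMN group with Bap1KO set 4-OHT-treated cultures with a vector for SMN or its K186R form beside 4-OHT-treated cultures without one. The cultures also differ in media batch and sex-linked expression, which cannot be told apart from the vector. Both comparisons share the 3 Bap1KO libraries with each other and with the comparison above, so their values stand side by side and are not independent. In Smn1OE, 3 of 9 members were called, Inhba and Smad7 higher and Tgfbr3 lower, beside 33.5% of all genes. In Smn1OE_K186R, 2 of 9 were called, Inhba and Smad7 higher, beside 32.6% of all genes. Both shares are near the background, so the counts say nothing particular about these genes. The members' median log2 fold change was -0.03 and 0.04, and CPM ranges did not overlap for 3 and 2 members, beside 48.6% and 43.7% of all genes.

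Inhba (ENSMUSG00000041324) encodes the beta A subunit, which pairs to form activin A. It had 275, 397 and 395 CPM in WT, 290 (replicate 1), 487 and 424 CPM in Bap1KO, 603, 646 and 691 CPM in Smn1OE and 672, 982 and 709 CPM in Smn1OE_K186R. The lowest library with a vector lay above the highest library without one. Against Bap1KO the log2 fold change was 0.69 ± 0.20 in Smn1OE (SE; edgeR adjusted p = 0.0203) and 0.98 ± 0.20 in Smn1OE_K186R (adjusted p = 0.00429). The Smn1OE call ended without Bap1KO replicate 1 (adjusted p = 0.0697), without Smn1OE replicate 3 (0.0652) and without both libraries of batch F (0.0698). The Smn1OE_K186R call held in all 12 alternatives, up to an adjusted p of 0.0191. Ordered by mean, the groups ran WT, Bap1KO, Smn1OE and Smn1OE_K186R, and neither the lower pair nor the upper pair of neighbours differed beyond its spread.

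Smad7 (ENSMUSG00000025880) encodes the inhibitory SMAD that blocks the type I receptor and is itself a direct target of the pathway, closing a negative feedback loop. It had 70.0, 95.4 and 91.1 CPM in WT, 80.3, 124 and 105 CPM in Bap1KO, 161, 140 and 167 CPM in Smn1OE and 145, 137 and 156 CPM in Smn1OE_K186R. No library without a vector reached the lowest library with one. Against Bap1KO the log2 fold change was 0.60 ± 0.15 in Smn1OE (SE; edgeR adjusted p = 0.0105), a call that held in all 12 alternatives. It was 0.51 ± 0.15 in Smn1OE_K186R (adjusted p = 0.0228), a call that ended without Bap1KO replicate 1 (0.0924), Bap1KO replicate 3 (0.0567), Smn1OE_K186R replicate 3 (0.0678) or batch F (0.0766).

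Tgfbr3 (ENSMUSG00000029287) encodes betaglycan, the co-receptor that presents TGF-beta 2 to the signalling receptors and that also binds inhibin. Its level was 204, 153 and 228 CPM in WT, 196, 104 and 176 CPM in Bap1KO, 66.9, 61.1 and 11.9 CPM in Smn1OE and 111, 84.2 and 19.9 CPM in Smn1OE_K186R. Both libraries of batch F, replicate 3 of each SMN group, stood far below the other SMN libraries. The log2 fold change against Bap1KO was -1.76 ± 0.61 in Smn1OE (SE; edgeR adjusted p = 0.0431) and -1.15 ± 0.60 in Smn1OE_K186R (adjusted p = 0.16). Without batch F these became -1.31 (adjusted p = 0.00812) and -0.70 (0.0624). The Smn1OE_K186R difference did pass in limma voom with a random effect of the media batch (-1.39, adjusted p = 0.0489) and without the filter on low counts (-1.16, 0.00856). The Smn1OE call ended without Bap1KO replicate 1 (0.107), Bap1KO replicate 3 (0.0951), Smn1OE replicate 1 (0.0544), Smn1OE replicate 2 (0.0596) or Smn1OE replicate 3 (0.0979). The summed FAP markers, mostly Col1a1, were lower in the SMN groups than in Bap1KO too, with no overlap. The means of Ly6a, Pdgfra, Dcn, Dpt and Lum of that list were also lower, while Cd34 was higher with no overlap. The part of these markers in the Tgfbr3 difference was not tested.

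The other members did not pass against Bap1KO in the main edgeR fit. Fst had 32.5, 61.6 and 37.1 CPM in Smn1OE and 41.7, 72.8 and 40.8 CPM in Smn1OE_K186R. Its log2 fold change against Bap1KO was -0.66 (edgeR adjusted p = 0.063, or 0.0106 without Smn1OE replicate 2) in Smn1OE and -0.42 (0.223, or 0.037 without Smn1OE_K186R replicate 2) in Smn1OE_K186R. In Smn1OE, Fst did pass in DESeq2 (-0.65, adjusted p = 0.0327), in limma voom with a random effect of the media batch (-0.70, 0.0216) and without the filter on low counts (-0.67, 0.00173). Tgfbr1, at 16.5, 16.7 and 12.4 CPM in Smn1OE and 17.4, 23.6 and 14.2 CPM in Smn1OE_K186R, stayed near its Bap1KO level, with log2 fold changes of -0.03 (95% interval -0.42 to 0.36) and 0.25 (-0.14 to 0.64). Tgfbr2 had 115, 95.1 and 77.5 CPM in Smn1OE and 142, 116 and 89.5 CPM in Smn1OE_K186R. Its log2 fold changes were -0.41 (edgeR adjusted p = 0.116, or 0.0212 without the filter on low counts and 0.0414 without Bap1KO replicate 2) and -0.14. Tgfb3 had log2 fold changes of -0.27 (0.143, or 0.0339 without Smn1OE replicate 2) and -0.24, Tgfb2 of 0.15 and 0.20, and Tgfb1 of 0.09 and 0.04.

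**Figure D3:**
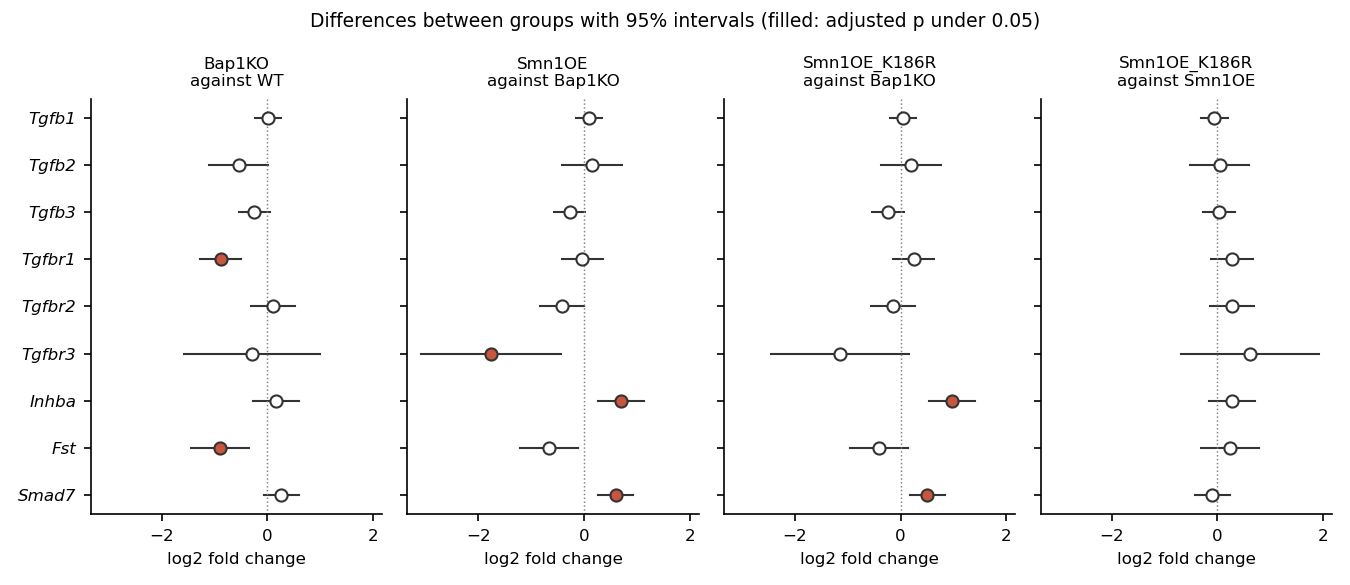
Log2 fold change with its 95% interval (x axis) of the 9 genes (y axis) in 4 comparisons, with filled points for genes called at an adjusted p under 0.05 in edgeR. Tgfbr1 and Fst are filled in Bap1KO against WT, Tgfbr3, Inhba and Smad7 in Smn1OE against Bap1KO, Inhba and Smad7 in Smn1OE_K186R against Bap1KO, and none in Smn1OE_K186R against Smn1OE.

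Against WT, the same 3 WT libraries served both SMN groups and the Bap1KO comparison. In Smn1OE 6 of 9 members were called, beside 50.4% of all genes, and in Smn1OE_K186R 5 of 9, beside 50.5%, shares near the background. By direction, 2 members were higher in each, beside 23.8% and 24% of all genes, and 4 and 3 were lower, beside 26.6% and 26.5%. CPM ranges did not overlap for 6 members in each, beside 62.4% and 58.4% of all genes, and the median log2 fold change was -0.39 and -0.35. Fst fell by 1.56 on the log2 scale in Smn1OE (edgeR adjusted p = 0.000454) and by 1.32 in Smn1OE_K186R (0.00124). Tgfbr1 fell by 0.91 (0.0014) and by 0.64 (0.011). Inhba rose by 0.86 (0.00374) and 1.15 (0.00067), and Smad7 by 0.86 (0.000648) and 0.77 (0.00128). Tgfb3 (ENSMUSG00000021253) encodes the ligand with the highest level of the 3 in these cells, and had 149, 145 and 150 CPM in WT, 135, 115 and 123 CPM for Bap1KO, 83.3, 123 and 103 CPM for Smn1OE and 87.9, 118 and 111 CPM for Smn1OE_K186R. Every library of the other groups lay below the WT libraries, and Tgfb3 fell by 0.52 in Smn1OE (0.00728) and by 0.49 in Smn1OE_K186R (0.0105). These calls held in all 12 alternatives. Tgfbr3 fell by 2.06 in Smn1OE (0.0148) and had a log2 fold change of -1.44 in Smn1OE_K186R (0.0639), which was -1.0 and passed without batch F (0.00967), and which also passed in limma voom with a random effect of the batch (-1.72, 0.0122), without the filter (-1.44, 0.000524) and in a fit of only the 2 groups (-1.43, 0.0398).

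Among the 3 TGF-beta ligand genes, Tgfb3 gave 75.0 ± 1.61% of the summed CPM per kilobase for WT, 72.8 ± 4.51% for Bap1KO, 67.1 ± 5.47% for Smn1OE and 68.3 ± 4.68% for Smn1OE_K186R (SD, n = 3). Tgfb1 gave 19.9 ± 0.633%, 23.2 ± 3.05%, 27.9 ± 5.28% and 26.7 ± 5.51%, and Tgfb2 (ENSMUSG00000039239) 4.04 to 5.07%. The order of the 3 ligands was the same in all 12 libraries. These are transcript levels, and the secreted ligands are held in latent complexes that counts do not show.

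Inhba and Fst encode a ligand and its trap, and their ratio separated 3 tiers of libraries. Such tiers were not particular to this pair. The Tgfbr3 to Tgfbr2 ratio was 1.49 to 1.73 in WT, 1.04 to 1.39 in Bap1KO and 0.153 to 0.781 in the SMN groups. The ratios of Tgfbr1 to Tgfbr2 and Tgfb3 to Tgfb1 overlapped between Bap1KO and the SMN groups. Single genes had CPM ranges apart in 32.3% of cases between Bap1KO and WT. Against Bap1KO these were 48.6% in Smn1OE and 43.7% in Smn1OE_K186R. The Inhba to Fst ratio of CPM was 2.38, 3.26 and 2.63 in WT and 3.95, 8.19 and 5.69 in Bap1KO. It was 18.5, 10.5 and 18.6 in Smn1OE and 16.1, 13.5 and 17.4 in Smn1OE_K186R. Bap1KO lay above WT and below the SMN groups with no overlap. The mean log2 ratio differed by 1.06 between Bap1KO and WT, by 1.43 between Smn1OE and Bap1KO, and by 1.45 between Smn1OE_K186R and Bap1KO, each with an exact permutation p of 0.1 (2-sided), the smallest possible here. From WT to Bap1KO the log2 fold change was -0.90 for Fst and 0.17 for Inhba. From Bap1KO to Smn1OE it was -0.66 for Fst and 0.69 for Inhba, and to Smn1OE_K186R -0.42 and 0.98. Between the SMN groups the log2 ratio differed by 0.02 (exact permutation p = 1.0).

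The order of group means differed between members. Tgfbr1 ran from 28.6 ± 3.97 CPM in WT to 18.4 ± 4.80 in Smn1OE_K186R, 15.5 ± 1.4 in Bap1KO and 15.2 ± 2.45 in Smn1OE (SD, n = 3), and only WT stood apart from its neighbour. Fst ran from 129 ± 18.3 CPM in WT to 69.1 ± 8.34 in Bap1KO, 51.8 ± 18.2 in Smn1OE_K186R and 43.8 ± 15.7 in Smn1OE, again with only WT apart. Smad7 ran from 156 ± 14.3 CPM in Smn1OE to 146 ± 9.34 in Smn1OE_K186R, 103 ± 21.7 in Bap1KO and 85.5 ± 13.6 in WT, with the SMN groups apart from the others. The groups of Tgfb1, Tgfb2 and Tgfbr2 overlapped in all 6 comparisons.

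**Figure D4:**
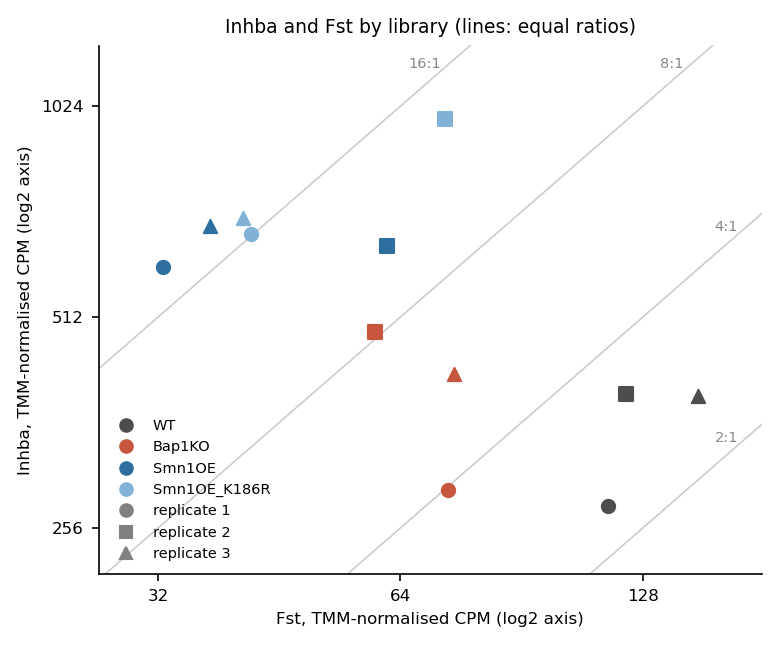
Inhba (y axis) against Fst (x axis) in TMM-normalised CPM, both on log2 axes, with one point per library, coloured by group and shaped by replicate, and lines of equal ratio. WT libraries lie at ratios of 2.38 to 3.26, Bap1KO at 3.95 to 8.19 and the SMN libraries at 10.5 to 18.6.

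The K186R form was compared with unmutated SMN, with batches D, E and F shared, first without a block on the batch. Of all 16597 genes 0 were called by edgeR (0%), and 0 by DESeq2, with 388 and 440 genes at an unadjusted p under 0.05. No member was among the 388, and no member's CPM ranges were apart, beside 6.78% of all genes. The log2 fold changes ran from -0.09 for Smad7 to 0.62 for Tgfbr3, with 95% intervals of -0.42 to 0.23 and -0.68 to 1.92, so for Tgfbr3 the interval holds sizeable differences in either direction. With the batch as a block, 35 of 15802 genes were called (0.221%), 34 of them higher in Smn1OE_K186R (0.215%) and 1 lower (0.00633%), and Tgfbr3 was among these at 0.63 (edgeR adjusted p = 0.0131). Its log2 ratio was 0.73, 0.46 and 0.74 within batches D, E and F. Both forms were low in batch F, at 11.9 and 19.9 CPM, and at 61.1 to 111 CPM in batches D and E.

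The other genes of the pathway were taken from 6 lists. With the media batch as a block, where 33.9% of all genes were called in Bap1KO against WT (15.4% higher and 18.5% lower), each list had more calls in that comparison than without it. The blocked counts were 1 higher and 5 lower of 17 for ligand storage and activation, 2 and 5 of 11 for the other SMAD2 and SMAD3 ligands and their inhibitors, and 2 and 4 of 11 for the receptors. They were 8 and 2 of 18 for the SMADs, 7 and 18 of 31 for the targets, and 7 and 8 of 25 for the BMP branch. Unless stated, the counts below are those without the block. Without it, 3.36% of all genes were higher and 6.37% lower in Bap1KO against WT. Against Bap1KO the shares were 15.8% and 17.7% in Smn1OE, and 16.1% and 16.5% in Smn1OE_K186R. Against WT they were 23.8% and 26.6% in Smn1OE, and 24% and 26.5% in Smn1OE_K186R. Integrins, latent-TGF-beta-binding proteins and other genes of ligand storage and activation formed a list of 18. In Bap1KO against WT, 0 rose and 1 fell: Itgb3, an integrin subunit, at -1.18 (edgeR adjusted p = 0.00501). In the SMN groups against Bap1KO, 4 rose and 6 fell in Smn1OE, and 4 rose and 4 fell in Smn1OE_K186R. Itgav, the alpha V integrin subunit that frees latent TGF-beta, rose by 0.55 (0.0117) and 0.73 (0.00323). Ltbp2, a microfibril protein, fell by 1.09 (0.00595) and 0.77 (0.0294), the latter call ending without Bap1KO replicate 3, Smn1OE_K186R replicate 2 or Smn1OE_K186R replicate 3 (up to 0.134).

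Of 16 genes listed as other ligands of SMAD2 and SMAD3 and their inhibitors, 11 were tested, and Inhbc, Inhbe, Mstn, Nodal and Lefty2 did not pass the filter. Inhbb, the beta B activin subunit gene, had a mean of 61.8 ± 7.31 CPM over the WT libraries and 129 ± 17.6 over the Bap1KO libraries (SD, n = 3), and rose by 1.07 (edgeR adjusted p = 0.0403), a call that ended when any 1 library was left out (up to 0.139). No other of the 11 was called there without the batch block. Against Bap1KO, 0 rose and 3 fell in each SMN group. Fstl1, a follistatin-like secreted protein gene, fell by 0.88 (0.00132) and 0.72 (0.00383), and Inha, the inhibin alpha subunit gene, fell by 0.95 (0.00282) and 0.82 (0.00595). Against WT, 1 rose and 6 fell in each SMN group. Of all genes, 23.8% and 24% were higher and 26.6% and 26.5% lower in these 2 comparisons. Gdf15, a stress-induced gene of the wider TGF-beta family, rose by 1.77 (0.000547) and 1.59 (0.00105). It is listed by family, and whether it acts through SMAD2 and SMAD3 here was not tested. The inhibitor Lefty1 fell by 1.54 (0.003) and 1.44 (0.0043), and Dcn, which encodes the matrix proteoglycan decorin and is also among the FAP markers, fell by 2.63 (0.00394) and 2.43 (0.0059).

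Of 13 further receptors and co-receptors, 11 were tested (not Acvr1c and Tdgf1), and 1 rose and 2 fell in Bap1KO against WT. Nrp2, a neuropilin co-receptor, rose by 0.47 (edgeR adjusted p = 0.0304), and Cd109 and Bambi, both inhibitors of TGF-beta receptors, fell by 0.78 (0.0243) and 0.62 (0.0376). The Cd109 call ended without Bap1KO replicate 3, WT replicate 1 or WT replicate 2 (up to 0.0999), and those of Nrp2 and Bambi ended on leaving out any but 1 of the 6 libraries (up to 0.117 and 0.143), which was Bap1KO replicate 3 for Nrp2 and Bap1KO replicate 1 for Bambi. Against Bap1KO, 3 rose and 1 fell in Smn1OE, beside 15.8% and 17.7% of all genes. In Smn1OE_K186R 3 rose and 0 fell, beside 16.1% and 16.5%. Nrp2 rose by 1.16 (0.000131) and 1.10 (0.000244), and its paralog Nrp1 by 0.59 (0.00285) and 0.68 (0.00163). Nrp2 stood at 28.8 to 32.5 CPM in WT, 38.1 to 46.2 CPM for Bap1KO, 87.3 to 112 CPM for Smn1OE and 79.4 to 101 CPM for Smn1OE_K186R, so that WT, Bap1KO and the SMN groups did not overlap.

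The SMADs and their regulators, 18 genes, had 3 higher and 1 lower in Bap1KO against WT, 6 higher and 1 lower in Smn1OE against Bap1KO, and 10 higher and 1 lower in Smn1OE_K186R against Bap1KO. Of all genes, 3.36% were higher and 6.37% lower in the first of these comparisons, 15.8% and 17.7% in the second, and 16.1% and 16.5% in the third. Their median log2 fold change was 0.13, 0.20 and 0.32, beside 0.00, -0.01 and -0.01 over all genes. Skil, a co-repressor of SMADs and a known target of the pathway, rose by 0.91 (edgeR adjusted p = 0.000565) and 0.97 (0.000488) in the SMN groups. Smurf2, a ubiquitin ligase that SMAD7 brings to the receptors, rose by 0.90 (0.00168) and 0.96 (0.00142). Smad6, the inhibitory SMAD of the BMP branch, went the other way from Smad7: it fell by 0.58 (0.00394) and 0.59 (0.00413). In Bap1KO against WT, Smurf1 at 0.47 (0.0303), Nedd4l at 0.45 (0.0349) and Smad6 at -0.44 (0.0389) were called. The Smurf1 call ended without Bap1KO replicate 2, Bap1KO replicate 3, WT replicate 1 or WT replicate 2 (up to 0.12), that of Nedd4l without Bap1KO replicate 3, WT replicate 1 or WT replicate 2 (up to 0.145), and that of Smad6 without any library but WT replicate 1 (up to 0.137).

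Target genes of SMAD2 and SMAD3 were called in both directions. Of 31, 2 rose and 2 fell in Bap1KO against WT without the batch block, beside 3.36% and 6.37% of all genes. Their median log2 fold change was -0.27. With the block, 7 rose and 18 fell, beside 15.4% and 18.5% of all genes. Tgfbi, a matrix adhesion protein gene named for its induction by TGF-beta, had 46.4 to 86.7 CPM in WT, 13.6 to 27.5 CPM for Bap1KO, 6.79 to 8.05 CPM for Smn1OE and 6.97 to 9.23 CPM for Smn1OE_K186R. Its log2 fold change against WT was -1.803 in Bap1KO (edgeR adjusted p = 0.00217), -3.201 in Smn1OE (1.24e-05) and -3.058 in Smn1OE_K186R (1.48e-05). Spp1, the osteopontin gene, fell by 1.802 in Bap1KO (0.0203), a call that ended on leaving out WT replicate 3, Bap1KO replicate 1 or Bap1KO replicate 3 (up to 0.0706). Cdkn1a, the p21 cell cycle inhibitor gene, rose by 0.50 (0.00686), and Scx, the tendon transcription factor gene and a tenocyte marker, by 1.08 (0.0128, or up to 0.0529 without Bap1KO replicate 3 or WT replicate 2).

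Against Bap1KO, 4 targets rose and 13 fell in Smn1OE, and 4 rose and 12 fell in Smn1OE_K186R, with medians of -0.19 and -0.08. Of all genes, 15.8% were higher and 17.7% lower in the first comparison, and 16.1% and 16.5% in the second. Among those that fell were 2 matrix genes: Itga11, a collagen-binding integrin subunit, fell by 4.04 (edgeR adjusted p = 0.000997) and 3.30 (0.00244), and Col3a1, a fibrillar collagen, fell by 2.51 (0.00121) and 1.99 (0.00374). Nox4, an oxidase induced by TGF-beta, rose by 0.89 (0.00425) and 0.92 (0.00389). Itga11 had 35.3 to 85.1 CPM in WT, 13.7 to 66.3 CPM for Bap1KO, 1.53 to 3.98 CPM for Smn1OE and 1.71 to 6.18 CPM for Smn1OE_K186R. The FAP sum, which is mostly the matrix gene Col1a1, and the tenocyte sum, mainly Fmod and Thbs4, were also lower in these groups. The means of the FAP markers Ly6a and Pdgfra were lower than in Bap1KO, while that of Cd34 was higher. The part of other cell types in the fall of the matrix genes was not tested.

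**Figure D5:**
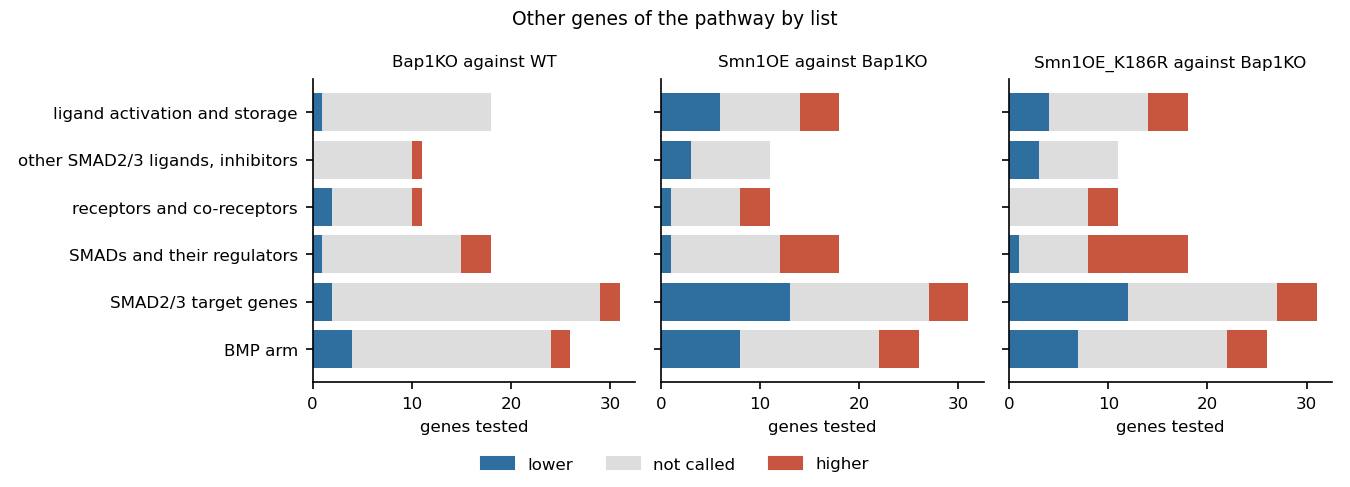
Number of genes tested (x axis) in 6 lists of other pathway genes (y axis), split into lower, not called and higher at an adjusted p under 0.05 in edgeR, for 3 comparisons. SMAD2/3 target genes have 13 lower and 4 higher in Smn1OE against Bap1KO, and the SMADs and their regulators have 10 higher and 1 lower in Smn1OE_K186R against Bap1KO.

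The BMP branch, which signals through other SMADs and shares some receptors, had 26 of 28 listed genes tested (not Bmp7 and Hamp). In Bap1KO against WT 2 rose and 4 fell, among them Bmpr1b, a type I BMP receptor gene, which rose by 0.67 (edgeR adjusted p = 0.00903). Against Bap1KO 4 rose and 8 fell in Smn1OE, beside 15.8% and 17.7% of all genes. In Smn1OE_K186R 4 rose and 7 fell, beside 16.1% and 16.5%. Bmp4, a BMP ligand gene, fell by 2.88 (0.00527) and 2.14 (0.018, or up to 0.092 without Bap1KO replicate 1 or Smn1OE_K186R replicate 3). These fold changes rest on few reads, 8 to 42 in Smn1OE and 14 to 62 in Smn1OE_K186R, beside 66 to 338 in Bap1KO. Bmp2 had 1 read in each Bap1KO library, 2 to 8 in WT, 12 to 19 in Smn1OE and 8 to 25 in Smn1OE_K186R. These are too few for a fold change, though Bmp2 is among the 4 genes counted as higher in each SMN group against Bap1KO. Grem1, which encodes a secreted BMP antagonist, stood at 240 ± 55.7 CPM for WT, 377 ± 91 for Bap1KO, 757 ± 47 for Smn1OE and 832 ± 60.4 for Smn1OE_K186R (SD, n = 3). It rose by 0.65 in Bap1KO (0.0393, a call that ended without Bap1KO replicate 2, Bap1KO replicate 3, WT replicate 1 or WT replicate 3, up to 0.138), and against WT by 1.658 (3.78e-05) and 1.795 (2.41e-05) in the SMN groups.

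The genes with the pattern most like each member over the 12 libraries are a description only, since libraries share groups and batches. By Pearson's r of log2 CPM, Inhba was most like Nckap1 (0.9951), Smad7 most like Vps11 (0.9931) and Ankrd1 (0.9924), and Tgfbr3 most like Ptx3 (0.9894) and Hsd11b1 (0.9867). For Fst, Oxct1 had an r of 0.9827. Tgfbr1 was most like Gpd1l (0.9481) and Inpp4a (0.9461), and Tgfb3 most like Rmdn1 (0.9584) and Pitrm1 (0.9565). Tgfb1 was most like Bean1 (0.9317), Tgfb2 most like Cnn1 (0.9159) and Tgfbr2 most like Lhfpl2 (0.9555).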

How the data were processed

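RNA-seq gene counts of 12 libraries were used as the authors deposited them: raw counts per Ensembl gene ID, 55335 gene rows per file. Per the submitters' processing notes, the tools listed are STAR 2.6.1, HTSeq 0.9.1, cutadapt 1.4.2, CASAVA 1.8.2 and DESeq2 (no version given), with the genome build GRCm39. The annotation release, strand setting and counting options are not given in the sources used here. The 5 closing rows of each file, which name no gene (group means of 11.6 to 14.2% of the total), were left out. Symbols came from a GENCODE M21 table and matched 55154 IDs.

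Counts were tested with edgeR 4.0.16 (R 4.3.3; quasi-likelihood test, TMM scaling, filterByExpr with a minimum count of 10) in 1 model of all 12 libraries with 8 residual degrees of freedom, 2-sided, with Benjamini-Hochberg adjustment over 16597 genes and a threshold of 0.05. Levels are TMM-normalised CPM, and the scripts were tested on simulated data. Ratios of 2 genes were compared with exact permutation tests (scipy 1.17.1). Groups and culture media batches came from the labels. Libraries of a shared batch pair by that label, and their deviations from group means correlated at 0.24 to 0.435 (WT with Bap1KO) and 0.302 to 0.431 (SMN groups), against -0.349 to 0.0486 across batches. Alternatives were the batch block, DESeq2 1.42.0, limma 3.58.1 (voom), another scaling, no filter, fits of 2 groups only, and leaving out each library. Leaving out batch F was chosen after seeing the data. The members and gene lists were chosen with earlier results of these data known. The genes named are all 9 members, in each list and comparison those called with the 2 largest positive and the 2 largest negative log2 fold changes, and the 2 genes most correlated with each member. A gene of 2 lists counts in both. Some genes that this rule names are not reported here.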

Additional observations from a re-analysis of the deposited data

How the results depend on the processing

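With the replicate block (culture media batch), the genes called in Bap1KO against WT went from 1614 to 5207 and the members called from 2 to 6. In Smn1OE_K186R against Smn1OE the block took the genes called from 0 to 35 and the members from 0 to 1 (Tgfbr3). DESeq2 called 2560 genes in Bap1KO against WT. Without a filter on low counts, 5 members were called in Smn1OE against Bap1KO in place of 3 (Fst and Tgfbr2 added). A fit of only the 2 groups called 3462 genes in place of 5416 in Smn1OE_K186R against Bap1KO. Without batch F, an alternative chosen after seeing the data, 3655 genes in place of 5567 were called in Smn1OE against Bap1KO, and 1 member (Inhba) in Smn1OE_K186R against Bap1KO. Without that batch the log2 fold change changed sign for Tgfbr1 in Smn1OE against Bap1KO (0.10), Tgfbr2 in Smn1OE_K186R against Bap1KO (0.017) and against WT (0.12), and, in Smn1OE_K186R against Smn1OE, Tgfb1 (0.019) and Tgfb3 (-0.0024). None of these 5 had been called.

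Leaving out 1 library at a time gave 535 to 1457 genes and 1 member called in Bap1KO against WT, the lowest count of genes without Bap1KO replicate 3. It gave 3512 to 5627 genes and 1 to 4 members in Smn1OE against Bap1KO (lowest without Bap1KO replicate 1), and 3385 to 5309 genes and 1 to 3 members in Smn1OE_K186R against Bap1KO (lowest without Bap1KO replicate 1). Sign changes were seen only for differences that were not called. In Bap1KO against WT, Tgfb1 ran from -0.070 to 0.10. In Smn1OE against Bap1KO, Tgfb2 ran from -0.088 to 0.42 and Tgfbr1 from -0.10 to 0.10. In Smn1OE_K186R against Bap1KO, Tgfb1 ran from -0.056 to 0.13, Tgfb2 from -0.049 to 0.46 and Tgfbr2 from -0.31 to 0.014. In Smn1OE_K186R against WT, Tgfb1 ran from -0.044 to 0.13 and Tgfbr2 from -0.21 to 0.12. In Smn1OE_K186R against Smn1OE, Fst ran from -0.087 to 0.57, Tgfb1 from -0.14 to 0.035, Tgfb2 from -0.079 to 0.24 and Tgfb3 from -0.10 to 0.18. Over all alternatives, 196 values of called members kept their direction and side of the threshold and 18 lost the call. The cause of these changes was not tested. With 3 libraries a group, the spread between libraries limits what could be called.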
